A study of Mus musculus with 12 samples.

Results

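The genes described here make, sense and move cholesterol: 30 mouse genes were taken by symbol from the 55491 genes of the deposited tables, and they comprise 18 enzymes of cholesterol synthesis, 5 genes that control the SREBP transcription factors, 5 genes of sterol transport, uptake control and storage, and the 2 liver X receptors. They are not the whole pathway, and its other enzymes and receptors were not analysed here, apart from the surrounding lists at the end. Of the 30 genes, 29 passed the filter on low counts and were tested, and Nr1h3 did not. The cells were PT-22, a mouse line labelled as proximal tubule, grown in medium with 3% fetal bovine serum. Every group shared the genotype Pax2-/-, Pax8fl/fl, Rosa-CreERT2, so the controls are labelled as lacking Pax2 as well and carried the same Cre recombinase, made from the Rosa locus and switched on by 4-hydroxytamoxifen. The control group had no treatment. The other groups received 1 µM 4-hydroxytamoxifen for 2 days, and RNA was collected 2, 6 or 12 days after treatment. The 4 groups held 3 libraries each (A, B and C), 12 in all. PT-22 is 1 line, no group received the solvent alone or was left untreated to a later day, and the effects of drug, Cre, time in culture and PAX8 loss therefore cannot be told apart. The labels name no separate cultures within a group, so each p-value reflects the variation among these libraries alone, which may be technical.

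Animal cells build cholesterol from acetyl-CoA in a long chain of enzymes: the mevalonate steps make farnesyl pyrophosphate, squalene is then made and closed into lanosterol, and a last series of steps turns lanosterol into cholesterol. The transcription factor SREBP-2 (Srebf2) turns these genes on when sterols in the endoplasmic reticulum are low. Its precursor is escorted to the Golgi by Scap and held back by the Insig proteins, and Insig1 is itself a target of the pathway. The liver X receptors respond to oxysterols and turn on genes that limit uptake and promote export, among them Mylip. Proximal tubule cells take up part of the filtered material by endocytosis, and cholesterol is also a large part of their brush-border membrane.

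Library totals ran from 4326667 counts (day 2 B) to 11654959 counts (day 2 C), and day 2 B also lay farthest from its group on the second principal component. Day 2 A, B and C stood at -23.4, -35.7 and -14.3 on it, so day 2 C lay apart as well, on the other side. Pax8, the targeted gene, stood at 221 to 228 CPM (counts scaled to the library total after TMM normalization) in control, 367 to 460.4 CPM at day 2, 249 to 268 CPM at day 6 and 232 to 252 CPM at day 12. Its rises at day 2 (0.83 ± 0.07 log2, edgeR adjusted p = 5.59e-12) and day 6 (0.18 ± 0.07, edgeR adjusted p = 0.0181) passed. The day 12 difference did not (edgeR adjusted p = 0.189). Its transcript was thus not lower after treatment, and since gene-level counts include exons outside the floxed part, the deletion cannot be checked from them. Pax2 transcript was counted in every library as well, at 42.6 to 53.4 CPM in control, 62.0 to 84.6 CPM at day 2, 74.9 to 86.4 CPM at day 6 and 47.4 to 54.6 CPM at day 12. Its rises at day 2 (0.58 ± 0.10 log2, edgeR adjusted p = 1.53e-04) and day 6 (0.75 ± 0.10, edgeR adjusted p = 8.78e-07) passed. Of 12 markers of the proximal tubule, 9 passed the filter, Slc34a1 and Slc5a2 had no count in any library, and the summed level of the list was 1032 to 1159 TPM in control, 705 to 791 at day 2, 722 to 891 at day 6 and 427 to 548 TPM at day 12. That sum mixes opposite courses: Aqp1 went from 108 ± 3.19 TPM in control to 344 ± 20.3, 700.1 ± 90.6 and 427 ± 60.0 TPM (SD, n = 3) at days 2, 6 and 12. Cdh16, by far the largest part of the sum in control, went from 701 ± 52.2 to 26.4 ± 3.99 TPM at day 12. Cdh6 went from 137 ± 9.41 to 19.7 ± 0.191 TPM and Anpep from 54.4 ± 3.19 to 3.56 ± 0.371 TPM. The fall of the sum therefore mostly follows Cdh16. A list of 8 fibroblast and smooth muscle markers went from 3.10 to 4.77 TPM in control to 11.2 to 15.5 at day 2, 66.5 to 87.1 at day 6 and 290.0 to 353 TPM at day 12. Most of that was the smooth muscle actin gene Acta2. The fibroblast gene Dcn went from 0.243 ± 0.143 TPM in control to 4.15 ± 0.435 at day 6 and 18.1 ± 1.43 TPM at day 12, while Col3a1 and Pdgfra were at 0 throughout. The lists of endothelial and distal tubule markers stayed between 0 and 4.11 TPM, with Cdh5, Kdr and Aqp2 at 0. Leukocyte markers summed to 28.4 to 35.2 TPM in control and 37.6 to 39.6 TPM at day 12, with Cd3e and Itgam at 0. Among them Cd68 went from 8.21 ± 1.38 to 14.4 ± 1.87 TPM, Cd14 from 13.3 ± 1.61 to 19.8 ± 1.63 TPM and Csf1r from 10.4 ± 1.34 to 4.06 ± 0.755 TPM. Ptprc was at 0.41 ± 0.262 TPM in control and at 0 on days 2, 6 and 12. The group means of Adgre1 and Cd79a were at most 0.02 and 0.14 TPM. The part of these marker changes in the results below was not tested.

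The 3 comparisons with control, which share the control libraries, asked when the pathway changed after treatment. At day 2 a minority of the genes rose slightly: of the 29 tested, 9 rose, 1 fell and 19 did not pass the threshold (adjusted p under 0.05). Over all 13513 tested genes 10.3% rose and 10.9% fell at that day. By day 6 the picture was the opposite, with 19 lower, 7 higher and 3 not past the threshold, against 27.6% lower and 26.7% higher over all genes. At day 12, 20 were lower, 5 higher and 4 not past the threshold, against 26.6% and 26.1%. Rises at days 6 and 12, and falls at day 2, were thus no more frequent among the members than over all genes. The median log2 fold change of the 29 genes was 0.13 at day 2, -0.47 at day 6 and -0.81 at day 12, while the median over all tested genes was -0.00, -0.01 and -0.00. In bulk RNA, a change in the share of cells that express a gene and a change in RNA per cell cannot be told apart.

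**Figure D1:**
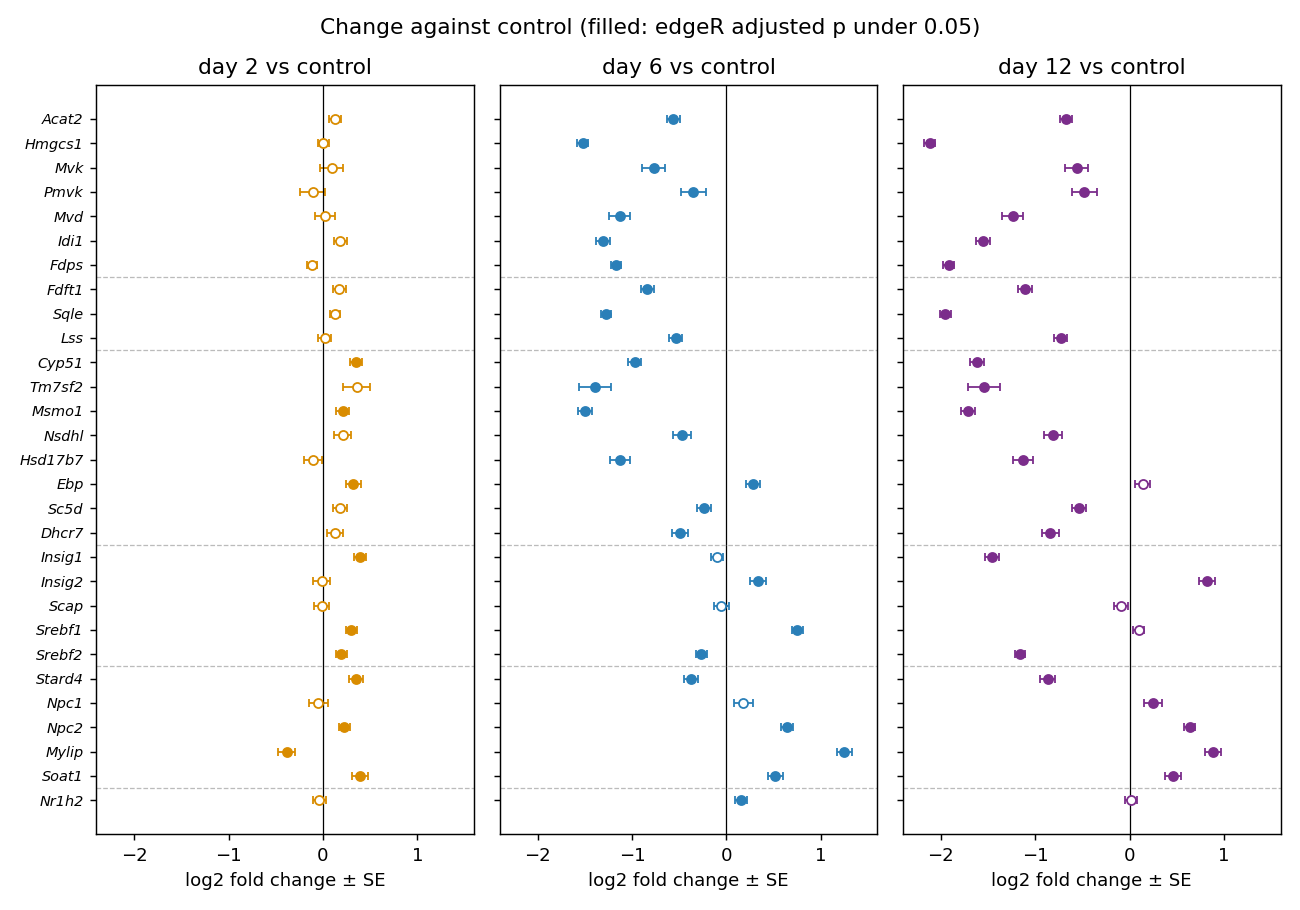
Log2 fold change ± SE (x axis) of the 29 tested genes (y axis, grouped by role with dashed lines) at days 2, 6 and 12 against control, 3 libraries a group; filled points have an edgeR adjusted p under 0.05. At day 2 the points lie between -0.39 and 0.39, and at day 12 all enzymes other than Ebp lie below 0.

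Nearly all of the 18 enzymes fell late, and few of them rose early. At day 2, 3 of them rose (Cyp51, Msmo1 and Ebp), 0 fell and 15 did not pass. At day 6, 17 fell and 1 rose, and at day 12 17 fell and 1 did not pass. The gene outside the fall was Ebp on each of these days. Over all tested genes, 10.3% rose at day 2, while 27.6% were lower at day 6 and 26.6% at day 12. The mean log2 difference of the 18 enzymes from their control means was 0.16, 0.12 and 0.08 in the day 2 libraries A, B and C, -0.81, -0.86 and -0.87 in the day 6 libraries and -1.11, -1.12 and -1.14 in the day 12 libraries. Each day 2 library thus lay above each control library, where the values were -0.00, -0.02 and 0.02, and the day 6 and day 12 libraries lay far below with no overlap.

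**Figure D2:**
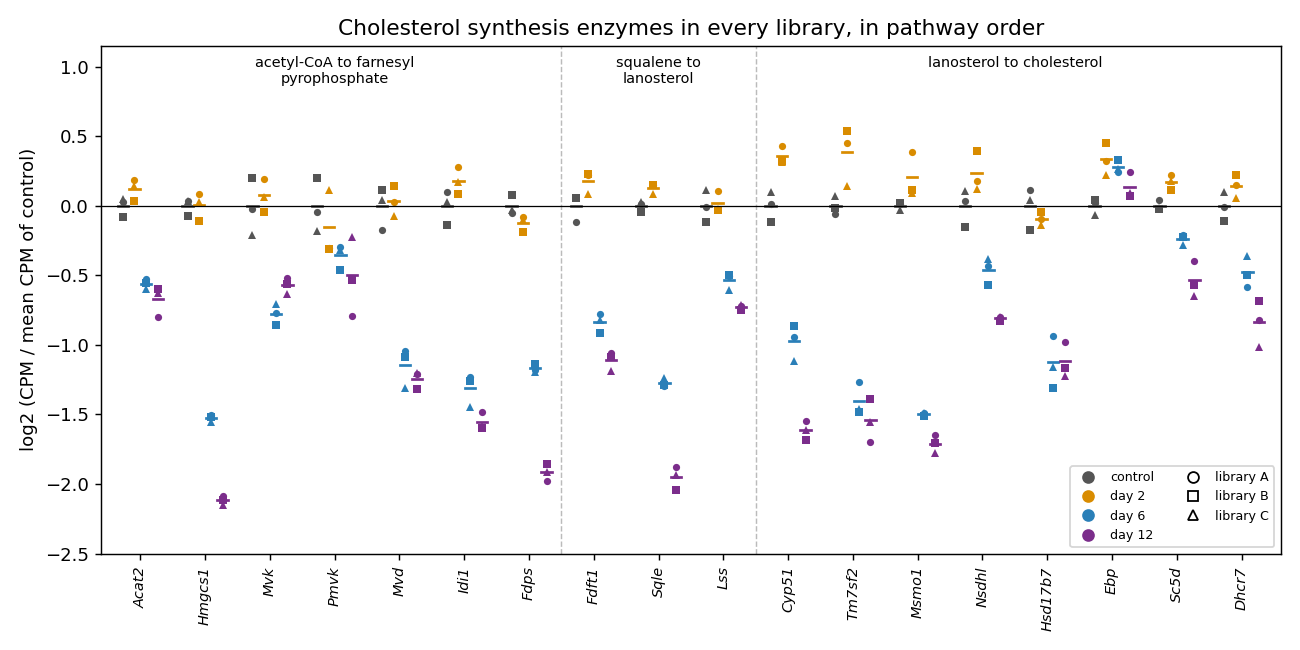
CPM of each synthesis enzyme in all 12 libraries, as log2 of the ratio to the mean of the 3 control libraries (y axis), with the genes in pathway order (x axis), colours for groups, symbols for libraries A to C and bars at the log2 of each group's mean. Day 6 and day 12 libraries lie below control for every enzyme other than Ebp.

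Promoters were read for all members with a start site in the table, whether or not their levels moved together. RefSeq windows (GRCm38.p6, 250 bases before to 50 after a start site) were found for 25 of the 30 genes, with none for Fdps, Fdft1, Sqle, Stard4 and Npc1. A few are shown, 5′ to 3′ on the gene's strand: Hmgcs1 for the largest late fall, Cyp51 and Insig1 for a rise at day 2 followed by a fall, and Ebp as the enzyme that did not fall below control. Capitals mark matches, on either strand, to the sterol regulatory element TCACNCCAC, where SREBPs bind, and to the CCAAT box of NF-Y, a factor known to act with SREBPs.
Hmgcs1 (chr13:119690101-119690400, plus strand): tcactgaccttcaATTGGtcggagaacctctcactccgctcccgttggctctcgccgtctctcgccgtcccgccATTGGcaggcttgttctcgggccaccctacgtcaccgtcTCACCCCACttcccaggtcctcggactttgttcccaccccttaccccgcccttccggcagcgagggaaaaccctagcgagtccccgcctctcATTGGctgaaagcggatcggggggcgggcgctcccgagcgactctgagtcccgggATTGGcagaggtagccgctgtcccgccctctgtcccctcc
Cyp51 (chr5:4104648-4104947, minus strand): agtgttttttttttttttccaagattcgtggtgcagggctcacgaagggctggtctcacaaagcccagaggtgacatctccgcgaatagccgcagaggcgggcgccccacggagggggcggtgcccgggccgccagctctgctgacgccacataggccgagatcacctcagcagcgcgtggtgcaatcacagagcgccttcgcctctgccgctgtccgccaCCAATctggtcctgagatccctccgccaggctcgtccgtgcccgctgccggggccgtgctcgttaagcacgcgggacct
Insig1 (chr5:28071162-28071461, plus strand): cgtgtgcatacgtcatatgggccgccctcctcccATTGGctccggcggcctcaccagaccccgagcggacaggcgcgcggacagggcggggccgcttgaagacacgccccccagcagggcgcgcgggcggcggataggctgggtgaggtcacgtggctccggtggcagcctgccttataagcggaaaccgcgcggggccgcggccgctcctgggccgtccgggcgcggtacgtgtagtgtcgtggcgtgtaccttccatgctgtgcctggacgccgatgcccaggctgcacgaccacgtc
Ebp (chrX:8193463-8193762, minus strand): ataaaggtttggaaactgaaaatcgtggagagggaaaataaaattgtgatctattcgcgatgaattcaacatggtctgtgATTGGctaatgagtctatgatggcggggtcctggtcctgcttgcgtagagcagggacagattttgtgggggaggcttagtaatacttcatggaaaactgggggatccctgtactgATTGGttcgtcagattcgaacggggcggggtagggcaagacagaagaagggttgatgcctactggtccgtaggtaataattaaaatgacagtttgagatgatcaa
The Hmgcs1 window held 1 exact sterol regulatory element and 4 CCAAT boxes, and no other member's window held the element in these letters, which 1.44% of all 27025 genes with a window did. CCAAT stood in a window of 21 of 25 members (84%), against 41.1% of all genes and 43.2% of the tested genes. Counted by window, it stood in 22 of 34 windows of members (64.7%), against 37.4% of all 32851 windows. Ebp had 2 such boxes, Cyp51 and Insig1 1 each. The Sp1 box GGGCGG was in 22 members (88%, against 70.2% of tested genes) and the E-box CACGTG in 5 (20%, against 11.8%). A liver X receptor element (AGGTCA repeated after 4 bases) was in 0 members and in 4 of all genes. Both strands were searched, no matches of different motifs overlapped in the windows shown, and a gene with several start sites counted once if any window matched.

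The first segment of the pathway runs from acetyl-CoA to farnesyl pyrophosphate. None of its 7 genes passed the threshold at day 2. All 7 were lower at days 6 and 12, against 27.6% and 26.6% of all tested genes. Hmgcs1 (ENSMUSG00000093930, GRCm38 chromosome 13, 119690379 to 119708260), the HMG-CoA synthase whose promoter is shown above, stood at 447, 413 and 445 CPM in control libraries A, B and C and at 461, 402 and 444 CPM at day 2. It then stood at 153, 152 and 148 CPM at day 6 and 102, 100.3 and 98.1 CPM at day 12. The day 2 and control libraries overlapped, and every later library was lower than all of them. Its log2 fold change was 0.01 ± 0.05 (SE) at day 2 (edgeR adjusted p = 0.960), -1.52 ± 0.06 at day 6 (edgeR adjusted p = 6.78e-22) and -2.12 ± 0.06 at day 12 (edgeR adjusted p = 1.16e-25), a 4.34-fold fall.

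Fdps (ENSMUSG00000059743, GRCm38 chromosome 3, 89093588 to 89101959), which makes farnesyl pyrophosphate, was the highest member per transcript length, at 655 ± 13.4 TPM (transcript level scaled per library and per length, mean ± SD, n = 3) in control. Its CPM was 420.2, 459.8 and 428 in control, 412, 382 and 407 at day 2, 192, 199 and 191 at day 6 and 110.4, 120.3 and 116 at day 12. The day 2 libraries were lower than control without overlap, but that difference of -0.12 ± 0.05 log2 did not pass (edgeR adjusted p = 0.117). By day 12 the level had fallen 3.77-fold (edgeR adjusted p = 8.27e-25), and the protein-coding gene model Gm43738 shares 1124 exonic bases with it on the same strand, so some of its reads are uncertain.

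Idi1, the isopentenyl pyrophosphate isomerase, had the smallest p of this segment at day 2, with 135, 114 and 128 CPM in control and 152, 133 and 141 CPM at day 2. These groups overlapped, and the difference of 0.18 ± 0.07 log2 did not pass (edgeR adjusted p = 0.0562). It passed with RLE scaling, upper-quartile scaling, the replicate letter as a block, and without control A or day 2 B (adjusted p from 0.0199 to 0.302 over all alternatives). Idi1 then fell to 53.4, 52.5 and 46.0 CPM at day 6 and 44.9, 41.5 and 41.8 CPM at day 12 (log2 fold change -1.56 ± 0.08, edgeR adjusted p = 7.44e-19).

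The other genes of the segment fell less. Mvd, the mevalonate diphosphate decarboxylase, went from 30.5 ± 3.05 to 12.9 ± 0.569 CPM at day 12 (log2 fold change -1.24). Acat2, the cytosolic acetoacetyl-CoA thiolase of the first step, went from 116 ± 5.47 to 73.0 ± 5.50 CPM (-0.67). Its close copy Acat3 had 2 to 12 counts per library, and reads of such copies can be split between them, so Acat2 is uncertain to that extent. The kinase gene Mvk was lowest at day 6 (11.8 ± 0.622 CPM, from 20.2 ± 2.90 in control) and stood at 13.6 ± 0.541 CPM at day 12, a difference between these days that did not pass (edgeR adjusted p = 0.276). Pmvk, the next kinase, changed least: it went from 27.2 ± 3.69 CPM to 21.3 ± 1.3 at day 6 and 19.3 ± 3.80 CPM at day 12 (edgeR adjusted p = 0.0284 and 0.00349). The day 6 call for Pmvk was lost with limma on TPM and without control A, control B, day 6 B or day 6 C (adjusted p from 0.00644 to 0.363 over the alternatives).

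The 3 genes that make squalene and lanosterol did not pass at day 2. All 3 were lower at days 6 and 12, against 27.6% and 26.6% of all tested genes. Sqle (ENSMUSG00000022351, GRCm38 chromosome 15, 59315077 to 59331192), squalene epoxidase, had 323, 311 and 327 CPM in control and 356, 355 and 339 CPM at day 2. Each day 2 library was above each control library, yet the difference of 0.13 ± 0.05 log2 did not pass (edgeR adjusted p = 0.0950, 0.0491 without day 2 C). It stood at 130.2, 131 and 136 CPM at day 6 and 86.9, 77.9 and 83.7 CPM at day 12, a 3.87-fold fall by day 12 (log2 fold change -1.95 ± 0.06, edgeR adjusted p = 6.75e-25).

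Fdft1, squalene synthase, went from 96.9 ± 6.65 CPM to 109.9 ± 5.99 at day 2 (edgeR adjusted p = 0.0690), 54.3 ± 2.68 at day 6 and 45.0 ± 2.06 CPM at day 12 (edgeR adjusted p = 3.92e-15). At day 2 it passed with upper-quartile scaling and without day 2 C. It shares 774 exonic bases with the lysosomal protease gene Ctsb on the opposite strand, and the sources used here do not give the strand setting of the counting, so its counts are uncertain. Hmgcs1, Idi1, Lss, Cyp51, Scap and Srebf1 share between 109 and 985 exonic bases with a gene model on the opposite strand and carry the same uncertainty. Lss, lanosterol synthase, fell from 110.2 ± 8.91 to 76.1 ± 3.17 CPM at day 6 and 66.5 ± 0.886 CPM at day 12 (log2 fold change -0.54 and -0.73). Its day 6 call was lost with limma on log2(TPM + 1) (adjusted p = 0.0508).

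The steps from lanosterol to cholesterol held all the enzymes whose early rise passed the threshold. At day 2, 3 of 8 rose, against 10.3% of all tested genes. At days 6 and 12, 7 of 8 were lower, against 27.6% and 26.6%. Idi1, Fdft1 and Sqle of the earlier steps lay near the threshold at day 2 (edgeR adjusted p = 0.0562, 0.0690 and 0.0950). A rise confined to the later steps is thus not shown. Cyp51 (ENSMUSG00000001467, GRCm38 chromosome 5, 4081145 to 4104746), the lanosterol demethylase, stood at 156, 143 and 166 CPM in control and 208, 194 and 192 CPM at day 2. All day 2 libraries exceeded all control libraries, a rise of 0.35 ± 0.06 log2 (edgeR adjusted p = 6.92e-05, 0.0618 with limma on log2(TPM + 1) and no filter). At day 6 the libraries held 80.7, 85.2 and 71.4 CPM and at day 12 53.1, 48.1 and 50.5 CPM, without overlap between any of the groups. The fall at day 12 was 3.07-fold (edgeR adjusted p = 5.78e-20).

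Msmo1, the sterol C4 methyl oxidase, had 146, 147 and 142 CPM in control and 189, 157 and 155 CPM at day 2, with day 2 A the highest. This rise of 0.21 ± 0.07 log2 passed (edgeR adjusted p = 0.0198) but was lost without day 2 A, without control C, with only the 6 libraries compared and with limma on TPM (adjusted p from 0.00297 to 0.316 over the alternatives). It fell to 51.5, 50.7 and 51.6 CPM at day 6 and 46.2, 44.4 and 42.2 CPM at day 12 (log2 fold change -1.71 ± 0.07, edgeR adjusted p = 1.79e-20). Tm7sf2, a sterol C14 reductase, was low, at 11.7 ± 0.534 CPM in control, 15.4 ± 2.13 at day 2, 4.45 ± 0.370 at day 6 and 4.04 ± 0.437 CPM at day 12. Its day 2 difference of 0.36 ± 0.15 log2 did not pass (edgeR adjusted p = 0.0820, 0.0264 without day 2 C) and its day 12 fall did (edgeR adjusted p = 1.62e-09). It shares 532 exonic bases with Vps51 on the same strand, so its reads are uncertain.

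Ebp (ENSMUSG00000031168, GRCm38 chromosome X, 8185329 to 8193512), the sterol isomerase, was the exception. It stood at 48.7, 49.4 and 45.9 CPM in control, 60.0, 65.7 and 55.9 at day 2, 56.8, 60.4 and 57.7 at day 6 and 56.8, 50.4 and 51.2 CPM at day 12. All later libraries were above all control libraries. Its rise passed at day 2 (0.32 ± 0.08 log2, edgeR adjusted p = 0.00264) and day 6 (0.28 ± 0.08, edgeR adjusted p = 0.00240), and the difference at day 12 did not (0.14 ± 0.08, edgeR adjusted p = 0.140).

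The remaining enzymes of this segment fell without an early call. At day 2 Nsdhl (0.21 log2, edgeR adjusted p = 0.113) and Sc5d (0.18, edgeR adjusted p = 0.0991) lay above control without overlap but did not pass. Dhcr7 (0.13, edgeR adjusted p = 0.325) and Hsd17b7 (-0.10, edgeR adjusted p = 0.526) overlapped control at day 2. Hsd17b7, a sterol ketoreductase, had 17.9 ± 2.37 CPM on day 6 and 18.0 ± 1.63 CPM on day 12, from 39.1 ± 3.90 CPM in control. Nsdhl, which acts in the same demethylation complex, went from 35.0 ± 3.12 to 25.5 ± 1.63 and 20.0 ± 0.203 CPM. Dhcr7, a reductase of the last steps, went from 50.6 ± 3.66 to 36.3 ± 2.81 and 28.4 ± 3.19 CPM. Sc5d, the lathosterol desaturase, changed least of the enzymes that fell here, from 54.5 ± 1.40 to 46.2 ± 1.11 and 37.7 ± 3.43 CPM (log2 fold change -0.54 at day 12, edgeR adjusted p = 4.93e-07). The day 6 calls of Sc5d and Dhcr7 were lost with limma on log2(TPM + 1) (adjusted p = 0.122 and 0.0505).

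Summed over the 18 enzymes, transcript levels were 1784 ± 58.8 TPM in control, 1826 ± 62.4 at day 2, 943 ± 11.8 at day 6 and 675 ± 15.3 TPM at day 12 (SD, n = 3). The mevalonate segment gave 1133 ± 18.9 TPM in control and 1072 ± 79.3 TPM at day 2, with Fdps and Hmgcs1 as its largest parts. The lanosterol to cholesterol segment went from 371 ± 21.9 to 448 ± 24.7 TPM at day 2, and all 3 day 2 libraries (467, 457 and 420.4 TPM) exceeded the highest control library (389 TPM). At day 12 the 3 segments stood at 376 ± 18.8, 99.7 ± 3.13 and 199 ± 11 TPM in pathway order.

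**Figure D3:**
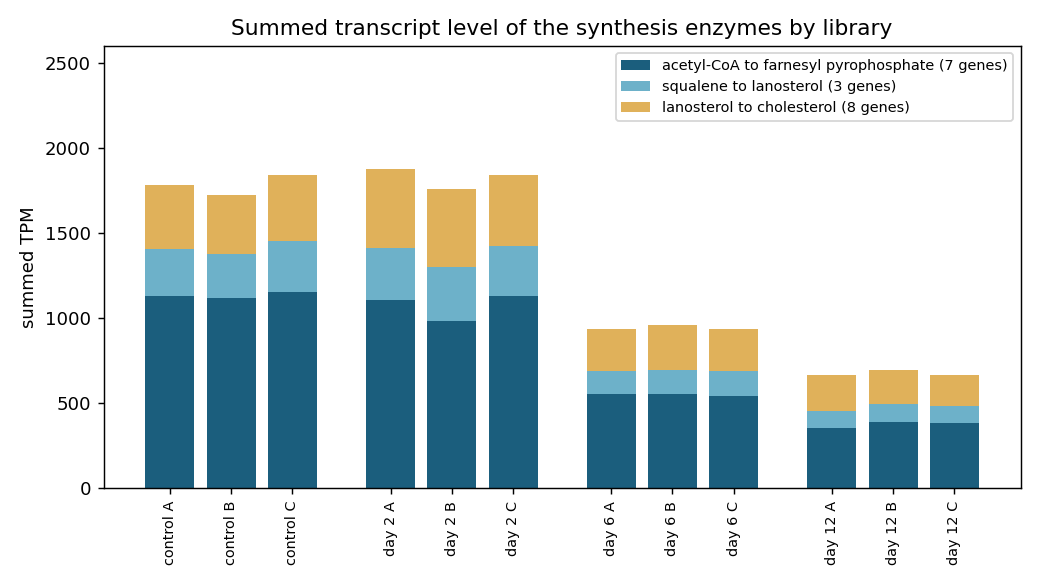
Summed TPM (y axis) of the synthesis enzymes in each of the 12 libraries (x axis), stacked by segment of the pathway. Control and day 2 libraries lie between 1726 and 1878 TPM and day 12 libraries between 664 and 692 TPM.

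Among the genes that control SREBP, Srebf2 and Insig1 rose and then fell while Insig2 and Srebf1 took other courses. Srebf2 (ENSMUSG00000022463, GRCm38 chromosome 15, 82147181 to 82205379), which encodes SREBP-2, stood at 616, 653 and 650.2 CPM in control and 736, 777 and 688 CPM at day 2, without overlap. This rise of 0.20 ± 0.05 log2 (edgeR adjusted p = 0.00750) was lost with limma on log2(TPM + 1) (adjusted p = 0.150). It then stood at 506, 535 and 558 CPM at day 6 and 294, 279 and 285 CPM at day 12, 2.23-fold lower than control (edgeR adjusted p = 6.29e-19).

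Insig1 (ENSMUSG00000045294, GRCm38 chromosome 5, 28071363 to 28078662), which retains the SREBP precursor, had 135, 141 and 156 CPM in control and 204, 176 and 186 CPM at day 2. The day 2 libraries were all higher (log2 fold change 0.39 ± 0.06, edgeR adjusted p = 1.13e-05). At day 6 its libraries overlapped control, with day 6 B below all control libraries, at 138, 128 and 138 CPM (-0.10 ± 0.06, edgeR adjusted p = 0.200), although 17 enzymes were already lower on that day. At day 12 it stood at 53.4, 54.0 and 50.0 CPM, 2.75-fold lower than control (edgeR adjusted p = 6.16e-19).

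Its relative Insig2, which also retains the precursor, did not pass at day 2 (36.4, 37.4 and 32.8 CPM in control, 33.5, 33.9 and 37.0 CPM at day 2). It rose to 42.0, 50.1 and 41.9 CPM at day 6 (edgeR adjusted p = 0.00131, 0.0706 with limma on log2(TPM + 1)) and 60.4, 62.4 and 64.4 CPM at day 12 (log2 fold change 0.82 ± 0.08, edgeR adjusted p = 2.26e-10). Per transcript length, Insig1 stood at 92.8 ± 9.87 and Insig2 at 39.7 ± 9.46 TPM in control, and at day 12 the order was reversed at 34.6 ± 1.92 and 81.1 ± 6.91 TPM.

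Srebf1, whose product SREBP-1 acts mainly on fatty acid genes, peaked at day 6. It had 169.8, 167 and 183 CPM in control, 208, 227 and 207 at day 2, 281, 292 and 302 at day 6 and 177, 192 and 186 CPM at day 12. Its rises at day 2 (0.30 ± 0.06 log2, edgeR adjusted p = 1.52e-04) and day 6 (0.75 ± 0.06, edgeR adjusted p = 1.98e-13) passed. At day 12 its difference of 0.10 ± 0.06 did not (edgeR adjusted p = 0.171), but it did with limma on log2(TPM + 1) (adjusted p = 0.00774). Scap, the escort protein, did not pass in any comparison, at 64.1 ± 3.82, 64.4 ± 6.84, 61.8 ± 2.23 and 60.2 ± 3.21 CPM in time order, and its log2 fold changes against control were between -0.09 and -0.01.

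**Figure D4:**
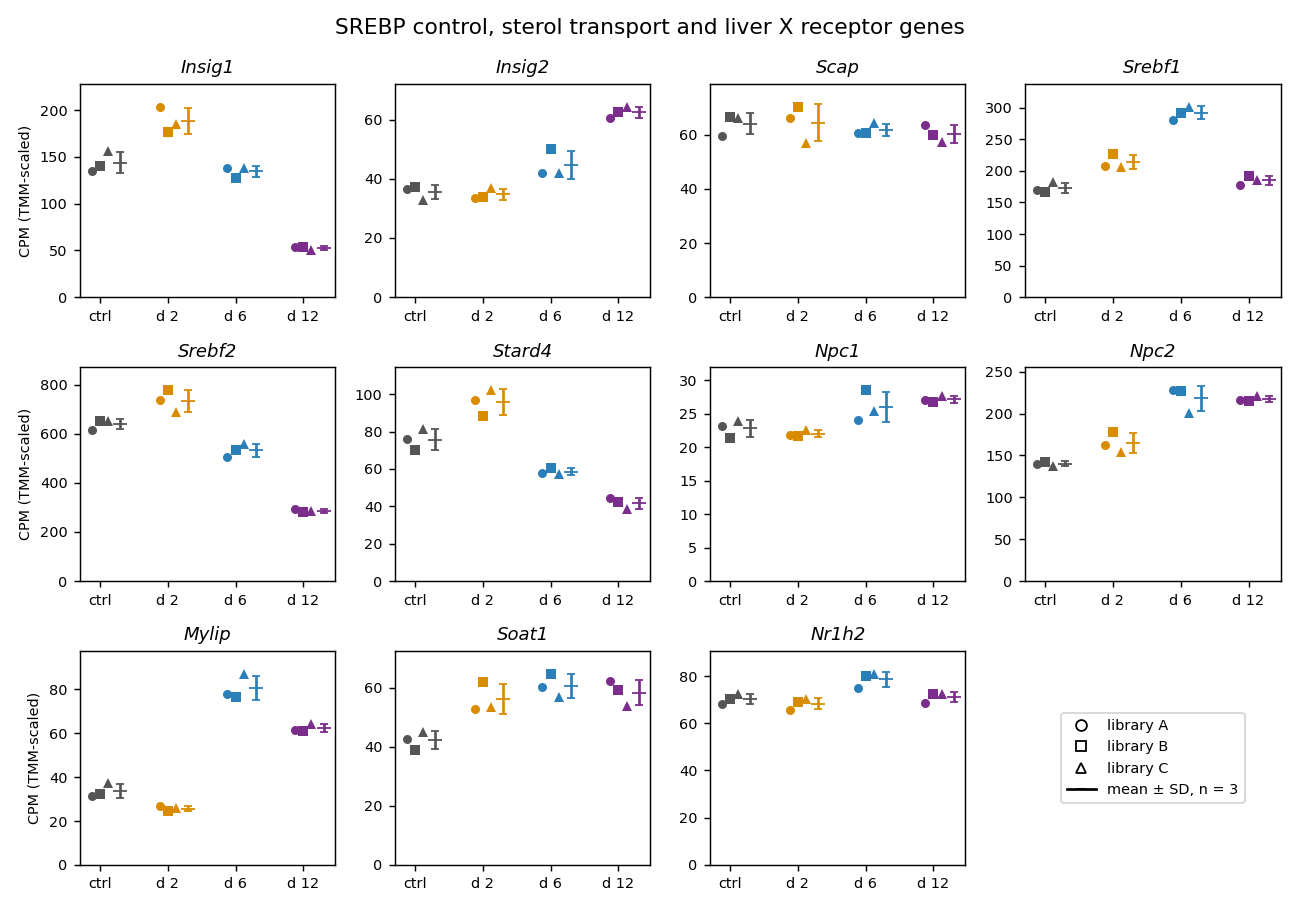
CPM (y axis, from 0) of the SREBP control, sterol transport and liver X receptor genes in each library (symbols A to C) of control and days 2, 6 and 12 (x axis), with mean ± SD over 3 libraries beside the points. Insig1 and Srebf2 are highest at day 2 and lowest at day 12, while Insig2 is highest at day 12 and Srebf1 and Mylip at day 6.

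Genes of sterol transport, uptake control and storage mostly rose, and Stard4 followed the enzymes instead. Stard4, a carrier that moves cholesterol between membranes, stood at 76.0, 69.9 and 81.2 CPM in control, 97.1, 88.2 and 102 at day 2, 58.0, 60.7 and 57.1 at day 6 and 44.2, 42.3 and 38.3 CPM at day 12, with no overlap between any groups. Its rise at day 2 was 0.35 ± 0.07 log2 (edgeR adjusted p = 4.30e-04, 0.0965 with limma on log2(TPM + 1)). Its fall at day 6 was also lost with limma (adjusted p = 0.119), and at day 12 it was 1.83-fold lower (edgeR adjusted p = 1.20e-11).

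Mylip (ENSMUSG00000038175, GRCm38 chromosome 13, 45389742 to 45412022), a ubiquitin ligase that marks lipoprotein receptors for degradation, was the only member that fell at day 2. It had 31.3, 32.1 and 37.4 CPM in control and 26.8, 24.6 and 25.7 CPM at day 2 (log2 fold change -0.39 ± 0.09, edgeR adjusted p = 0.00216). It then rose to 78.1, 76.6 and 87.0 CPM at day 6 and stood at 61.7, 60.8 and 64.4 CPM at day 12, all above control. The change against control was 1.25 ± 0.08 at day 6 (edgeR adjusted p = 2.07e-15) and 0.89 ± 0.08 at day 12 (edgeR adjusted p = 2.38e-11), the largest rise of the 29 genes on both days.

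Npc2, which carries cholesterol inside lysosomes, rose from 140.0, 143 and 137 CPM to 163, 177 and 154 at day 2 (edgeR adjusted p = 0.00621), 228, 226 and 201 at day 6 and 216, 215 and 221 CPM at day 12 (edgeR adjusted p = 4.12e-11). Npc1, its partner in the lysosomal membrane, changed less: 22.8 ± 1.27 CPM in control, 22.0 ± 0.505 at day 2, 26.0 ± 2.27 at day 6 and 27.2 ± 0.518 CPM at day 12. For Npc1 the rise at day 12 passed (0.25 ± 0.10 log2, edgeR adjusted p = 0.0319) but was lost under 10 of 21 alternatives, among them DESeq2, limma on TPM, no filter on low counts and leaving out control A, control B or any day 12 library (adjusted p up to 0.176). Npc1 shares 511 exonic bases with Rmc1 on the opposite strand and is uncertain for that reason too. Soat1, which esterifies cholesterol for storage, rose from 42.7, 38.9 and 44.9 CPM to 52.8, 62.0 and 53.6 at day 2 (0.39 ± 0.09 log2, edgeR adjusted p = 6.93e-04), 60.4, 64.6 and 56.8 at day 6 and 62.2, 59.1 and 53.8 CPM at day 12. No treated library of Soat1 overlapped control, and its calls at days 2 and 12 were lost with limma on log2(TPM + 1) (adjusted p = 0.0810 and 0.0906).

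Of the liver X receptors, Nr1h2 (LXR-beta) was present at 70.3 ± 2.17 CPM in control, 68.4 ± 2.36 at day 2, 78.6 ± 3.12 at day 6 and 71.1 ± 2.20 CPM at day 12. The day 6 rise of 0.16 ± 0.07 log2 was near the threshold (edgeR adjusted p = 0.0440) and was lost with DESeq2, with no filter, and without any control library, day 6 B or day 6 C (adjusted p from 0.00323 to 0.133 over the alternatives). Nr1h3 (LXR-alpha) had 1 to 11 counts per library and was not tested.

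Direct comparisons of the treated groups, which share libraries with the comparisons above, asked in which interval the fall took place. From day 2 to day 6, 19 members fell and 5 rose (22.3% and 22.6% of all genes). Of the enzymes, 16 fell and 2 (Pmvk and Ebp) did not pass, with a median log2 change of -1.02. From day 6 to day 12, 16 members fell and 1 (Insig2) rose, against 11% and 11% of all genes. The largest falls of that interval were of Insig1 (-1.36 ± 0.07 log2, edgeR adjusted p = 3.68e-16), Srebf2 (-0.90 ± 0.06, edgeR adjusted p = 2.77e-14) and Fdps (-0.75 ± 0.06, edgeR adjusted p = 6.43e-12). Sqle, Srebf1, Cyp51 and Hmgcs1 fell by 0.68, 0.66, 0.65 and 0.60 on the log2 scale in that interval. Hsd17b7 did not differ past the threshold (-0.00 ± 0.11 log2, edgeR adjusted p = 0.991), nor did Acat2, Mvk, Pmvk, Mvd, Tm7sf2 and Ebp. The falls of Lss and Msmo1 lay near the threshold (edgeR adjusted p = 0.0403 and 0.0498) and were lost under 10 and 13 of 21 alternatives, among them leaving out day 6 A, day 6 B, day 12 B or day 12 C, and, for Msmo1, any control library or day 6 C. Those of Idi1, Fdft1, Nsdhl and Dhcr7 were also lost on leaving out 1 library: Idi1 without day 6 A, day 6 B, day 12 B or day 12 C, Fdft1 without day 6 A, Nsdhl without day 6 C, and Dhcr7 without day 12 C. From day 2 to day 12, 21 members fell and 4 rose (21.6% and 22.3% of all genes). Those that rose were Insig2, Npc1, Npc2 and Mylip, and the call of Npc1 was lost without day 12 C. Of the falls, that of Pmvk (-0.37 log2, edgeR adjusted p = 0.0284) was lost without day 2 C (-0.19, adjusted p = 0.331), day 12 A or day 12 B (adjusted p = 0.151 and 0.0823). That of Srebf1 (-0.20 log2, edgeR adjusted p = 0.00424) was -0.02 with limma on log2(TPM + 1) (adjusted p = 0.859). Ebp did not pass from day 2 to day 12 (-0.18 log2, edgeR adjusted p = 0.0574). Its fall passed with limma on log2(TPM + 1) and log2(TPM + 0.1), with the replicate block, and without day 2 C or day 12 A. Its adjusted p ran from 0.0208 to 0.188 over the alternatives.

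Other genes around the pathway were counted in lists that do not include the members. Their counts stand against 10.3% of all tested genes higher and 10.9% lower at day 2, 26.7% and 27.6% at day 6, and 26.1% and 26.6% at day 12. In the non-sterol branches of the mevalonate pathway, which make ubiquinone, dolichol and prenyl groups, 0 of 14 genes changed at day 2, 8 fell by day 6 with 0 higher, and at day 12 6 were lower and 2 higher (median log2 fold change -0.23). Coq2, an enzyme of ubiquinone synthesis, fell from 25.3 ± 1.95 to 12.1 ± 0.904 CPM on day 6 (edgeR adjusted p = 7.73e-10), and Pdss1, which makes the ubiquinone side chain, from 10.8 ± 1.20 to 6.32 ± 0.379 CPM. Dhdds, of dolichol synthesis, fell from 48.1 ± 2.29 to 36.9 ± 0.798 CPM, and Icmt, which methylates prenylated proteins, from 82.6 ± 1.85 to 58.9 ± 2.34 CPM at day 12. Of 11 genes for SREBP proteases and sterol-regulated degradation, 4 rose and 4 fell at day 6, and 4 rose and 3 fell at day 12 (median -0.03), shares near those over all genes. Mbtps1, the site-1 protease that cuts SREBP, went from 227 ± 5.69 to 304 ± 2.62 CPM at day 6 and 289 ± 3.25 CPM at day 12 (edgeR adjusted p = 6.57e-07), and Rnf145, a ubiquitin ligase of the endoplasmic reticulum, from 109 ± 5.83 to 151 ± 8.17 CPM at day 6. Erlin1 and Erlin2, which act in sterol-regulated degradation, fell at all 3 days, to 77.6 ± 2.33 CPM from 98.7 ± 2.47 and to 176 ± 5.68 CPM from 229.8 ± 15.3 at day 12.

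Among sterol carriers and ester hydrolases, of 19 tested, 0 rose and 3 fell at day 2, 8 and 1 at day 6, and 7 and 2 at day 12 (median log2 fold change 0.13 at day 12). Lipa, the lysosomal acid lipase that frees cholesterol from its esters, went from 109.8 ± 2.97 to 186 ± 7.40 CPM at day 6 and 200.1 ± 8.33 CPM at day 12 (edgeR adjusted p = 8.88e-15). The carrier gene Osbpl5 went from 30.1 ± 1.18 to 66.3 ± 1.3 CPM at day 12, and Osbpl9 from 101 ± 6.19 to 157 ± 13.6 CPM. Nceh1, a cholesterol ester hydrolase, fell at day 2 from 120.0 ± 8.49 to 90.0 ± 3.33 CPM (edgeR adjusted p = 5.74e-06) and did not pass later. In the list of lipoprotein receptors and efflux genes (10 tested), 1 rose and 2 fell at day 2, 4 and 3 at day 6, and 5 rose and 4 fell at day 12. Abca1, which exports cholesterol from cells and is a known target of the liver X receptors, had 10.4, 12.3 and 11.9 CPM in control and 11.8, 12.2 and 13.2 CPM at day 2. It rose to 124, 139 and 125 CPM at day 6 and 139.5, 148 and 141 CPM at day 12, 11.2-fold and 12.4-fold above control (edgeR adjusted p = 5.62e-27 and 1.23e-27). Vldlr fell at each day, from 533 ± 28.8 CPM to 317 ± 9.10, 191 ± 15.9 and 154 ± 4.99 CPM (edgeR adjusted p = 1.89e-23 at day 12). Lrp8 was lower at day 12, with 10.3 ± 1.94 CPM against 58.6 ± 2.07, while Lrp1, for an endocytic receptor, rose from 233 ± 14.2 to 562 ± 25.1 CPM (edgeR adjusted p = 2.47e-19). For oxysterol and bile acid enzymes, 5 of 7 were tested, 2 rose and 2 fell at day 12, with Cyp39a1 up from 31.7 ± 3.40 to 50.5 ± 2.80 CPM at day 6. The log2 fold changes of the 5 against control ran from -1.22 to 3.21 at day 6 and from -1.16 to 4.01 at day 12. Genes of this list with a mean under 5 CPM are not named. Hsd3b7, of bile acid synthesis, fell at day 12 from 26.1 ± 1.25 to 21.1 ± 1.57 CPM (log2 fold change -0.31, edgeR adjusted p = 0.0105), and Sult2b1, a sterol sulfotransferase, did not pass against control on any day.

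Fatty acid synthesis and desaturation genes, the other arm under SREBP control, mostly fell by day 12. Of 15 genes, 4 rose and 4 fell at day 2, 2 and 10 at day 6, and 1 and 13 at day 12, with a median log2 fold change of -0.57 at day 12 against -1.12 for the cholesterol enzymes. The elongase gene Elovl6 fell from 96.1 ± 7.30 CPM to 74.6 ± 2.17 at day 2, 20.5 ± 1.54 at day 6 and 9.68 ± 1.52 CPM at day 12. The desaturase gene Fads1 rose slightly at day 2, from 619 ± 7.29 to 697 ± 32.6 CPM (edgeR adjusted p = 0.0170), and stood at 308 ± 6.89 CPM at day 12. Fads2 fell from 422 ± 31.1 to 164 ± 3.60 CPM at day 12, and Mid1ip1, an activator of acetyl-CoA carboxylase, from 143 ± 8.08 to 62.8 ± 2.05 CPM. S-phase genes had 2 of 20 lower at day 2, 12 at day 6 and 14 at day 12, with 0, 1 and 0 higher. Ribonucleotide reductase gene Rrm2 fell from 160.4 ± 3.94 to 100.5 ± 4.40 CPM at day 12, thymidylate synthase gene Tyms from 105 ± 2.15 to 63.0 ± 2.47 CPM, and the cyclin genes Ccne1 and Ccne2 to 24.0 ± 2.01 CPM from 37.8 ± 1.57 and to 39.7 ± 1.34 CPM from 65.1 ± 8.88. The median log2 fold change of the S-phase list was -0.26 at day 12, and the part of these genes in the fall of the enzymes was not tested.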

How the data were processed

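PolyA RNA of 12 libraries was measured by RNA sequencing. Per the submitters' processing notes, cutadapt 2.3, FastQC 0.11.8, STAR 2.7.8a, RSEM 1.3.3 and the genome build GRCm38 were used; the annotation release, strand setting and filters are not given in the sources used here. The authors deposited RSEM's expected counts as whole numbers without normalization, and TPM values (scaled per transcript length and library) in a separate table. Columns were assigned by library name.

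The count model was fitted with edgeR 4.0.16 (R 4.3.3): filterByExpr by group (13513 genes kept), TMM scaling, 1 robust quasi-likelihood model over all 12 libraries with the group as its term (8 residual degrees of freedom), two-sided, with Benjamini-Hochberg adjustment over all 13513 genes and 0.05 as the threshold. SE is the size of the log2 fold change divided by the root of its F value. Positions and exon overlaps came from GENCODE M21 (GRCm38). Alternatives were DESeq2 1.42.0, RLE and upper-quartile scaling, no filter, limma 3.58.1 on log2(TPM + 1) and log2(TPM + 0.1) (genes with TPM of at least 1 in 3 libraries, or no filter), 6 libraries only, a replicate block and leaving out each library. The scripts were tested on simulated data. The members, lists and tests were chosen with earlier results of these data known, so no list was tested as a set. All 30 members are named. Of each surrounding list, up to 4 genes with the smallest F-test p and a mean of at least 5 CPM are named; these lists do not hold every gene of their pathways, and 1 list of cell type markers is not reported here. No pair of libraries within a group was a copy (chi-square per degree of freedom 2.16 to 8.02), and pairs from different groups were not checked in this way. Total counts set the precision: day 2 B, with 4326667 counts, is the shallowest.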

Additional observations from a re-analysis of the deposited data

Results flagged for a closer look

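The effect against control differed between day 2 and day 12, by the direct test between these days, for 25 of the 29 genes (largest edgeR adjusted p = 0.0284, SE 0.06 to 0.17, 3 libraries a group). The same test called 22.3% of all tested genes higher and 21.6% lower at day 12 than at day 2. Of the 25 genes, 5 rose at day 2 and were lower than control at day 12. Their day 12 effect minus day 2 effect, in log2, was Cyp51 -1.97, Msmo1 -1.92, Insig1 -1.85, Srebf2 -1.36, Stard4 -1.22. Mylip went the other way, lower at day 2 and higher at day 12, with a difference of 1.27. In the others at least 1 of the effects did not pass or both had the same sign. Their differences, in log2, were Acat2 -0.80, Hmgcs1 -2.12, Mvk -0.65, Pmvk -0.37, Mvd -1.26, Idi1 -1.74, Fdps -1.80, Fdft1 -1.28, Sqle -2.08, Lss -0.75, Tm7sf2 -1.89, Nsdhl -1.02, Hsd17b7 -1.02, Sc5d -0.71, Dhcr7 -0.97, Srebf1 -0.20 among those lower at day 12 than at day 2, and Insig2 0.83, Npc1 0.30, Npc2 0.41 among those higher. The day 2 calls of Cyp51, Msmo1, Srebf2 and Stard4, and the differences of Pmvk, Srebf1, Npc1 and Mvk between the days, did not hold under every alternative run; that of Mvk was lost with limma on log2(TPM + 1) and no filter (adjusted p = 0.0714).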

How the results depend on the processing

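Of the 127 calls of a member in a comparison, 95 kept their direction and their side of the threshold under every alternative run, and 32 were lost under at least 1; no call was reversed. Of 47 results not called, 7 passed under at least 1 alternative. The limma fits on TPM (log2(TPM + 1), log2(TPM + 0.1), and no filter, in this order) lost most. They gave 5, 5 and 4 members higher at day 2 against 9, 12, 12 and 9 lower from day 6 to day 12 against 16, and 1, 0 and 0 higher against 1. Over all genes they gave, against control, 701, 732 and 586 higher and 899, 840 and 812 lower at day 2 (main 1392 and 1468), 2104, 2073 and 2025 lower at day 6 (3729) and 2307, 2288 and 2232 lower at day 12 (3601). From day 2 to day 6 they gave 1301, 1315 and 1114 lower (3007, and 3227 higher against 3055). From day 6 to day 12 they gave 443, 379 and 369 higher (1482) and 802, 766 and 637 lower (1489), and from day 2 to day 12 1490, 1484 and 1311 lower (2922). The cause was not tested; in these fits the median of all genes lay 0.12 (log2) higher from day 2 to day 6. Leaving out each library in turn gave 8 to 12 members higher at day 2 (12 without day 2 C), 18 to 19 lower at day 6 and 20 lower at day 12 each time. The letters A to C showed no clear pairing of the libraries: of 18 same-letter pairs, 1 had deviations correlated above 0.1 (-0.15 to 0.11), and 4 of 12 libraries correlated best with their own letter. This check cannot exclude a pairing, and the labels do not say what libraries of the same letter share. With the replicate block, 10 members were higher at day 2, 19 lower at day 6 and 20 lower at day 12.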
